A study of Mus musculus with 48 samples.

Results

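The comparison described here is that of mice carrying the interleukin-1 beta (IL-1b) transgene and a second genotype labelled FXR with mice of the FXR genotype alone. Its members are 6 of the 48 arrays of the series, 3 of genotype pl2_FXR and 3 of genotype FXR, chosen by those labels. Both groups came from the facility MRI, ate chow and were taken at 12 months, and no tamoxifen was recorded for them. They therefore differ, as far as the labels say, in the transgene only, and share the FXR genotype. The labels do not say what was done to FXR, the bile acid receptor, in this line. In the pl2 model the transgene is under the ED-L2 promoter of Epstein-Barr virus, which drives expression in squamous epithelium of the mouth, oesophagus and forestomach. The tissue was whole junction of oesophagus and stomach (squamocolumnar junction, or cardia). For comparison, the transgene difference between 3 pl2 and 3 WT arrays from MRI and that between 3 pl2 and 3 WT arrays from the facility Freising, all on chow at 12 months, were used. Nothing in the labels says that the arrays of a group came from separate animals, so p-values rest on the spread between samples. That spread was estimated within the groups over all 48 arrays, so a standard error can be wider or narrower than the 6 arrays alone would give.

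IL-1b is released by activated immune cells and epithelia, binds the receptor Il1r1 and, through Myd88 and Irak kinases, activates NF-kB, a transcription factor that switches on chemokines and its own inhibitors. Il1rn encodes a natural antagonist of that receptor. At the junction the stratified squamous lining of the oesophagus meets glandular gastric mucosa, and chronic IL-1b in this place is used as a model of Barrett oesophagus, in which columnar lining replaces squamous lining. FXR, encoded by Nr1h4, senses bile acids, which reach the junction in reflux.

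All values are log2 signals, so a difference of 1 is a 2-fold change, and every difference is pl2_FXR minus FXR with its standard error (SE) unless stated otherwise. The array medians of the series lay between 4.03 and 4.27. Correlations between the arrays of a group were 0.963 to 0.977 for FXR and 0.968 to 0.976 for pl2_FXR. Xist, the transcript of the inactive X chromosome, read 10.66 to 12.17 in all 6 arrays, and Uty, Kdm5d and Eif2s3y of the Y chromosome read at most 3.84, so these 6 arrays did not differ in sex-linked transcripts. The mean of the 10 hepatocyte markers was 8.97 in pl2_FXR replicate 3 but 4.65 and 4.79 in the other pl2_FXR arrays and 5.29 to 6.15 in the FXR arrays. Without the 10 arrays of the series whose hepatocyte or enterocyte mean was above 8, 1126 genes were called between the groups, of which 887 were among the 1547 described next. Tissue is bulk here, so fewer cells of a type and less RNA per cell cannot be told apart.

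Of 15242 genes tested with limma over all 48 arrays, 1547 changed between FXR and pl2_FXR at a Benjamini-Hochberg adjusted p below 0.05, which is 10.1 percent. Of these, 785 (5.15 percent of those tested) were higher and 762 (5 percent) were lower in pl2_FXR. At least 2-fold differences were seen in 530 of the higher and 294 of the lower genes, while the median over all tested genes was -0.0316. All pl2_FXR arrays lay above all FXR arrays for 761 of the 785 higher genes, against 13.9 percent of all tested genes. They lay below for 711 of the 762 lower genes, against 17.7 percent of all tested genes. These genes were called on the same arrays, so the lack of overlap largely follows from the call and adds no support. The count depended on single arrays, most of all among the lower genes: it was 577 without pl2_FXR replicate 2, 747 without pl2_FXR replicate 3 and 772 without FXR replicate 1. Where a named gene lost its call in such a fit, this is said beside it, and the other named calls held without each of the 6 arrays. The squamous lining also differed between the arrays: the mean of 27 suprabasal markers was 6.90, 7.68 and 7.69 in the FXR arrays, 9.34, 9.84 and 9.58 in the pl2_FXR arrays and 8.89, 9.25 and 9.69 in the WT arrays from MRI. All FXR arrays thus lay below all WT arrays, and the pl2_FXR arrays lay among or above the WT arrays. With the mean of the squamous markers as a covariate (the squamous covariate), 794 genes were called, and 276 of them were among the 1547. Calls between pl2_FXR and FXR that ended in that fit are given as such below, by gene or by the count of their list. The suprabasal means of the FXR and pl2_FXR arrays did not overlap, so squamous markers and transgene cannot be told apart in that fit. A call that ended there does not show that the difference shrank, and for Tnfrsf19 it did not.

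**Figure D1:**
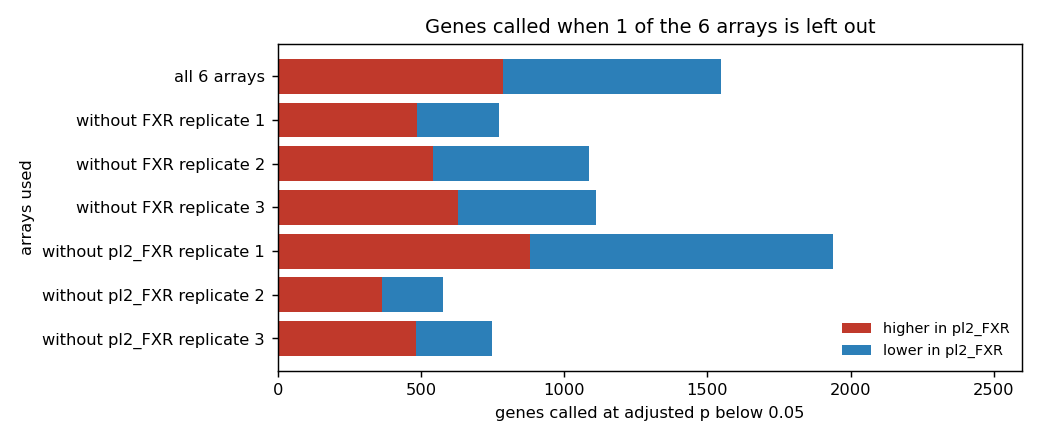
Genes called at adjusted p below 0.05 between pl2_FXR and FXR (x axis, count) with all 6 arrays and with 1 array left out (y axis). Red parts are genes higher and blue parts genes lower in pl2_FXR. The total falls from 1547 to 577 without pl2_FXR replicate 2, and the lower genes shrink more than the higher ones.

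Il1b itself read 4.82, 4.75 and 5.34 in the FXR arrays and 6.35, 7.87 and 7.43 in the pl2_FXR arrays. The groups did not overlap, and the difference was 2.24 ± 0.65 (4.74-fold, adjusted p = 0.0229). Where the probes lie is not known here, so the transgene's transcript and the mouse transcript cannot be separated. This call was lost without FXR replicate 1, FXR replicate 2, pl2_FXR replicate 2 or pl2_FXR replicate 3, with differences over the 6 fits of 1.92 to 2.68 and adjusted p up to 0.129. Nr1h4, the gene of FXR, read 4.36, 5.50 and 4.91 in FXR arrays and 4.82, 4.67 and 4.94 in pl2_FXR arrays, a difference of -0.11 ± 0.37 (adjusted p = 0.885). The groups overlapped, and the WT arrays from MRI read 4.91, 4.35 and 4.30, so the array showed no loss of Nr1h4 signal in the line labelled FXR. A lesion that leaves the probed transcript in place would not be seen in this way.

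Among the IL-1 family, 7 of 19 tested genes rose and none fell, with a median of 0.84. Il1rn, the receptor antagonist, read 3.61, 4.09 and 4.44 in FXR arrays and 7.08, 7.94 and 7.23 in pl2_FXR arrays. It rose 10.3-fold (3.37 ± 0.35, adjusted p = 4.81e-08). Casp1, the protease that matures IL-1b, read 4.22, 4.28 and 4.80 against 6.57, 6.71 and 7.12 and rose by 2.37 ± 0.26 (adjusted p = 8.41e-08). No FXR array reached the lowest pl2_FXR array for either gene. Il1f9, which encodes interleukin-36 gamma, rose by 3.17 ± 0.41 (adjusted p = 1.96e-06). Il1f6 (interleukin-36 alpha) rose by 2.44 ± 0.67 (adjusted p = 0.0163), but not past the threshold without FXR replicate 1 or pl2_FXR replicate 2 (adjusted p up to 0.0806). Il1a, the other IL-1 ligand, rose by 2.44 ± 0.59 (adjusted p = 0.00693), a call lost without FXR replicate 2 (adjusted p = 0.0579). The receptors did not pass: the signalling receptor Il1r1 differed by 0.44 ± 0.22 (adjusted p = 0.21) and the decoy receptor Il1r2 by 1.09 ± 0.42 (adjusted p = 0.0871). With the squamous covariate Il1b (1.56, adjusted p = 0.353), Il1a (0.64, adjusted p = 0.686) and Il1f6 (-0.98, adjusted p = 0.236) did not pass. In that fit 5 members of the list were called higher and 2 lower. The count of the list was 4 without FXR replicate 1, FXR replicate 2 or pl2_FXR replicate 2.

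Of 16 tested genes of NF-kB feedback and its targets, 6 rose and none fell (median 0.64), and the count was 6 in each fit without 1 of the 6 arrays. Saa3, an acute phase protein, read 2.58, 3.61 and 3.41 in FXR arrays and 9.71, 9.10 and 9.37 in pl2_FXR arrays, a rise of 6.19 ± 0.81 (73.2-fold, adjusted p = 1.96e-06). Its groups did not overlap. Nfkbia, the inhibitor that NF-kB induces against itself, and the related nuclear regulator Nfkbiz both rose: Nfkbia by 1.09 ± 0.19 (adjusted p = 0.000239) and Nfkbiz by 1.48 ± 0.21 (adjusted p = 8.94e-06). Bcl3, an atypical inhibitor and co-activator, rose by 1.46 ± 0.30 (adjusted p = 0.00159), the cytokine Tnf by 1.46 ± 0.34 (adjusted p = 0.00495) and the survival factor Birc3 by 1.05 ± 0.19 (adjusted p = 0.000427). With the squamous covariate, Nfkbia no longer passed (0.39, adjusted p = 0.319), while Nfkbiz, Bcl3, Tnf, Birc3 and Saa3 did.

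Promoters of the IL-1 family, NF-kB and neutrophil chemokine lists are shown because 7 of 19, 6 of 16 and 3 of 9 of their members rose and NF-kB is the factor downstream of IL-1. RefSeq promoters of build GRCm38.p6 were found for 37 of these 44 genes, and the 250 bases before each start were searched on both strands for GGGNNNNNCC, a loose form of the NF-kB site. Of the 37 genes, 24 held a match (64.9 percent), against 63.9 percent among the 11846 tested genes with a promoter, and 48.7 percent of all 27025 genes of the table held one. Of the 12 matched genes of the NF-kB list, 11 held one, and of the 17 of the IL-1 family list 8 did. Matches were held by 65.1 percent of 579 genes called higher and by 65.3 percent of 597 genes called lower. The rising list members Saa3, Ppbp, Il1f9, Il1a, Il1b and Irak2 had a promoter without a match, and Cxcl5, Il1f6 and Nfkbiz had no promoter. Cxcr1, which fell, held a match. The exact inverted repeat of the FXR element named IR-1 was found in 0 of the 11846 tested genes and in 2 of all 27025. The following 100-base stretches, each 5′ to 3′ in the direction of the gene and upstream of its start, are those of the 6 rising genes of the lists with the largest differences among those that held a match. Capitals mark GGGNNNNNCC on either strand, and overlapping matches run together.
Il1rn (chr2:24336760-24336859, plus strand): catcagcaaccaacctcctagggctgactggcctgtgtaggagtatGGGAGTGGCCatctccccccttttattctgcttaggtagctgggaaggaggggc
Cxcr2 (chr1:74153894-74153993, plus strand): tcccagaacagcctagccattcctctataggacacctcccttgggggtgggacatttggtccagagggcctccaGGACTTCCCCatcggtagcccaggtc
Casp1 (chr9:5298314-5298413, plus strand): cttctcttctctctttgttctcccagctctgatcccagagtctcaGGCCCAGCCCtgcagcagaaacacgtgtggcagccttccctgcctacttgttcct
Bcl3 (chr7:19822786-19822885, minus strand): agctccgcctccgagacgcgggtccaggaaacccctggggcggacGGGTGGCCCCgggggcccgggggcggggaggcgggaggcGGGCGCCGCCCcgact
Tnf (chr17:35202147-35202246, minus strand): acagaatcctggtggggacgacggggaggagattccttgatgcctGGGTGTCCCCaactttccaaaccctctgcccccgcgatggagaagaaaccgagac
Nfkbia (chr12:55492798-55492897, minus strand): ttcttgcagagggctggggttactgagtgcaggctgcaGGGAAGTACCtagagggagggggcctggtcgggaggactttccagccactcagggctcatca
A match is a description of these letters and not a measured site. Nfkbia holds 2 matches, of which 1 lies in the stretch shown.

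Of 15 tested neutrophil markers 8 rose and none fell, with a median of 1.65, and the mean of the markers was 3.98, 4.26 and 4.55 in the FXR arrays and 6.61, 7.17 and 6.69 in the pl2_FXR arrays. S100a8, a calcium-binding subunit of calprotectin, read 3.17, 2.86 and 3.20 in FXR arrays and 10.29, 10.80 and 9.56 in pl2_FXR arrays. It had the largest rise of all called genes, 7.14 ± 0.69 (141-fold, adjusted p = 2.08e-08), and the groups did not overlap. Its partner S100a9 read 3.42, 4.26 and 4.80 against 8.79, 9.56 and 9.31 and rose by 5.06 ± 0.61 (adjusted p = 5.63e-07). Both are also made by inflamed squamous epithelium. Cd177, a surface protein of neutrophils, read 5.29, 6.91 and 6.67 against 11.59, 10.47 and 10.27 and rose by 4.49 ± 0.67 (adjusted p = 1.86e-05). Retnlg, a resistin-like protein of bone marrow cells, rose by 4.01 ± 0.91 (adjusted p = 0.00383). Ltf, the iron-binding lactoferrin of neutrophil granules and glands, read 3.93, 6.29 and 10.38 against 10.77, 11.49 and 11.21. FXR replicate 3 lay close to the pl2_FXR arrays, and the rise was 4.29 ± 0.81 (adjusted p = 0.000578). The granule enzymes Mpo and Elane, named after their values were seen, read at most 3.56 in the 6 arrays and were too dim to be tested. The list's count was 6 to 8 over the fits without 1 of the 6 arrays and 5 with the squamous covariate.

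Of the 9 tested chemokines and receptors that guide neutrophils, 3 rose and 1 fell (median 1.23). Cxcl5, a neutrophil attractant made by epithelium, read 4.03, 4.02 and 4.22 in FXR arrays and 8.22, 8.96 and 9.23 in pl2_FXR arrays. All pl2_FXR arrays lay above all FXR arrays, and the rise was 26.2-fold (4.71 ± 0.69, adjusted p = 1.4e-05). Ppbp, a platelet chemokine, rose by 3.99 ± 0.85 (adjusted p = 0.00231). Cxcr2, the receptor of these ligands, read 4.42, 3.73 and 4.79 against 6.51, 7.45 and 6.78 and rose by 2.60 ± 0.49 (adjusted p = 0.000581), but the difference was 0.88 (adjusted p = 0.412) with the squamous covariate. Cxcr1, a related receptor, fell by 1.72 on the log2 scale (SE 0.47, adjusted p = 0.0166), a call lost without FXR replicate 2, FXR replicate 3 or pl2_FXR replicate 2 (adjusted p up to 0.0885). The ligands Cxcl1 (0.70 ± 0.44, adjusted p = 0.319), Cxcl2 (1.23 ± 0.67, adjusted p = 0.246) and Cxcl3 (2.37 ± 0.94, adjusted p = 0.0978) did not pass. Among other chemokines 2 of 21 tested genes rose, and Ccl20, which attracts Ccr6-bearing lymphocytes, was the larger with 2.32 ± 0.51 (adjusted p = 0.00332). The other rise was lost without any array but pl2_FXR replicate 1, so that count was then 1. Of 7 tested genes of the IL-17 and IL-22 list 2 rose, and Il22ra1, the epithelial receptor subunit for interleukin-22, rose by 2.60 ± 0.33 (adjusted p = 1.67e-06). This count was 1 without FXR replicate 1 or pl2_FXR replicate 2.

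**Figure D2:**
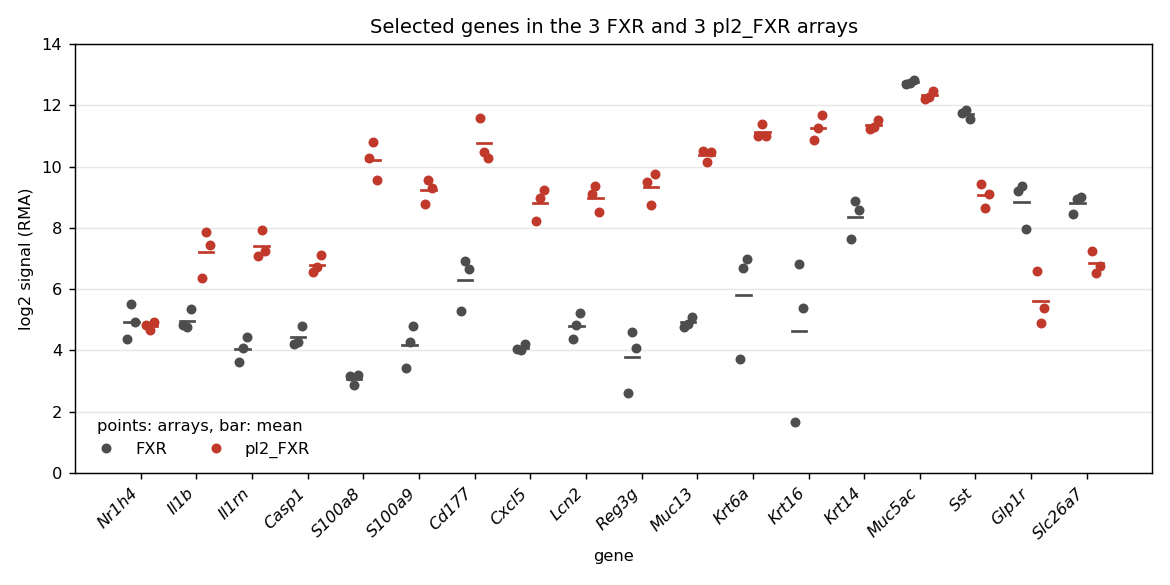
Log2 signal (y axis) of 18 genes (x axis) in the 3 FXR arrays (grey) and the 3 pl2_FXR arrays (red), where points are arrays and bars are group means. S100a8 lies near 3 in FXR and near 10 in pl2_FXR, Sst, Glp1r and Slc26a7 lie lower in pl2_FXR, and the groups overlap for Nr1h4.

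Of 27 tested suprabasal and cornified markers 15 rose and none fell (median 1.70), and the count was 12 to 17 over the fits without 1 array. Krt16, a keratin of activated keratinocytes, read 1.66, 6.81 and 5.39 in FXR arrays and 10.85, 11.25 and 11.68 in pl2_FXR arrays. The FXR arrays differed widely among themselves, yet all lay below the pl2_FXR arrays, and the rise was 6.64 ± 0.70 (99.5-fold, adjusted p = 4.81e-08). Its partner Krt6a read 3.71, 6.70 and 6.97 against 10.99, 11.38 and 11.00 and rose by 5.33 ± 0.54 (adjusted p = 3.06e-08). The stress keratins Krt6b (4.75 ± 0.53, adjusted p = 1.22e-07) and Krt17 (4.07 ± 0.47, adjusted p = 2.53e-07) rose as well. The cornified envelope genes Sprr2d (4.83 ± 0.39, adjusted p = 4.49e-10) and Sprr1b (4.58 ± 0.69, adjusted p = 1.93e-05) and the cross-linking enzyme Tgm1 (3.16 ± 0.33, adjusted p = 4.81e-08) rose too. By contrast, the keratins that mark the resting oesophageal lining did not pass: Krt4 differed by -0.15 ± 0.61 (adjusted p = 0.907) and Krt13 by 0.81 ± 0.36 (adjusted p = 0.149). Whether the stress keratins differ more than these was not tested.

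Of 11 tested basal markers 4 rose and 1 fell (median 0.34). Krt14, the basal keratin, read 7.64, 8.89 and 8.57 in FXR arrays and 11.22, 11.29 and 11.51 in pl2_FXR arrays and rose by 2.98 ± 0.33 (adjusted p = 1.09e-07). Trp63, the p63 factor of basal cells, read 5.06, 5.25 and 5.78 against 6.63, 7.37 and 7.97 and rose by 1.96 ± 0.37 (adjusted p = 0.000615). Neither gene's groups overlapped. Dsg3, the desmoglein of desmosomes, rose by 3.26 ± 0.37 (adjusted p = 1.66e-07) and the hemidesmosomal collagen Col17a1 by 1.73 ± 0.41 (adjusted p = 0.00552, but 0.0663 without pl2_FXR replicate 3). Dst, a large cytoskeletal linker also used by nerve and muscle, fell by 0.77 on the log2 scale (SE 0.18, adjusted p = 0.00549).

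In the fit with the squamous covariate, which these markers themselves make up, Krt16, Krt6a and Krt14 passed, while Trp63 (0.16, adjusted p = 0.827), Col17a1 (0.07, adjusted p = 0.951), Sprr1b (2.04, adjusted p = 0.114) and Dst (-0.66, adjusted p = 0.139) did not. Krt4 (-2.79, adjusted p = 0.00402) and Krt13 (-1.08, adjusted p = 0.00682) were lower in pl2_FXR in that fit. Of the 27 suprabasal markers 7 were then called higher and 10 lower (median -0.49), and of the 11 basal markers 2 were called higher and 0 lower. Because the covariate is the mean of these same markers, higher and lower differences among them must balance in that fit. The lower calls, Krt4 and Krt13 among them, therefore do not show a fall. Likewise, the higher calls, Krt16, Krt6a and Krt14 among them, do not show a rise independent of the squamous markers.

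**Figure D3:**
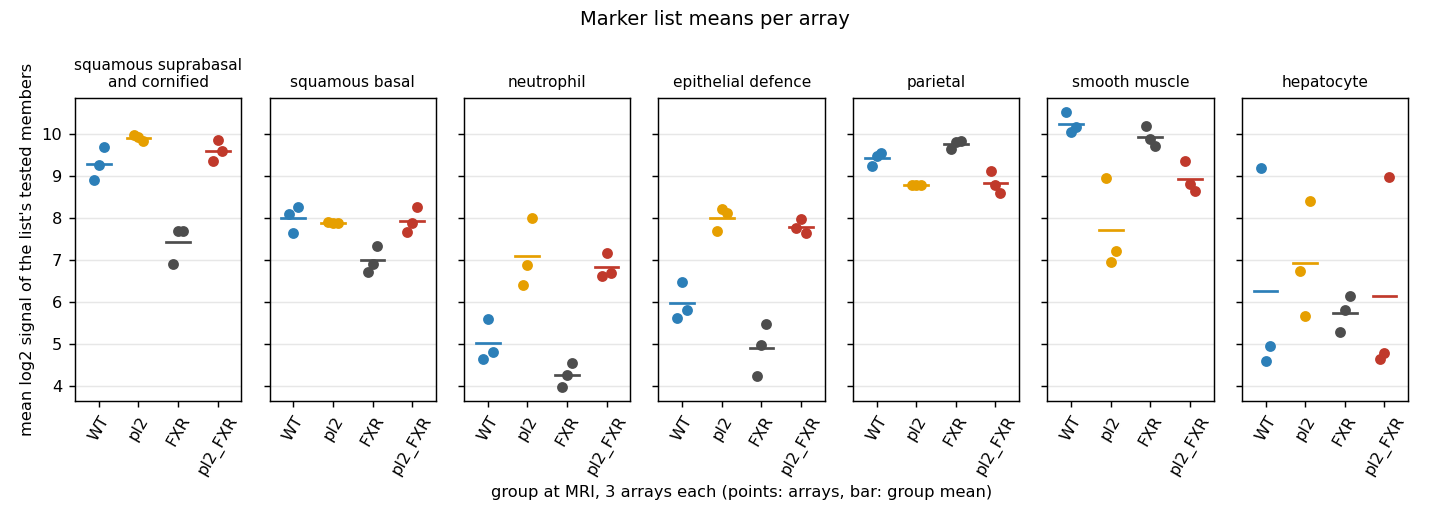
Mean log2 signal of the tested members of 7 marker lists (y axis) in WT, pl2, FXR and pl2_FXR arrays from MRI (x axis, 3 arrays each). Points are arrays and bars group means. Squamous suprabasal means are 6.90 to 7.69 in FXR arrays and 8.89 or more in the other groups, and the hepatocyte mean is raised in single arrays, among them pl2_FXR replicate 3 at 8.97.

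Genes of epithelial defence, the antimicrobial and secretory proteins of mucosae, rose in 14 of 19 tested cases and fell in none, with a median of 3.05. Their mean was 4.25, 4.99 and 5.48 in FXR arrays and 7.76, 7.97 and 7.64 in pl2_FXR arrays. Reg3g, an antibacterial lectin, read 2.61, 4.6 and 4.09 against 9.49, 8.74 and 9.76 and rose by 5.57 ± 0.59 (adjusted p = 4.94e-08). Lcn2, which binds bacterial iron carriers, read 4.36, 4.82 and 5.23 against 9.10, 9.35 and 8.51 and rose by 4.18 ± 0.47 (adjusted p = 1.36e-07). Both genes were higher in 3 of 3 pl2_FXR arrays than in any FXR array. Pigr, which carries IgA across epithelium, read 6.24, 7.75 and 8.91 against 11.62, 11.70 and 11.71 and rose by 4.05 ± 0.48 (adjusted p = 3.26e-07). The beta-defensin Defb3 rose by 5.13 ± 0.86 (adjusted p = 0.000123). Defb4, a second beta-defensin, rose by 3.90 ± 0.92 (adjusted p = 0.00552, but 0.0779 without FXR replicate 1), and its difference was -0.65 (adjusted p = 0.673) with the squamous covariate. The lysozyme Lyz1 rose by 4.39 ± 1.10 (adjusted p = 0.0084), lost without FXR replicate 1 or pl2_FXR replicate 2 (adjusted p up to 0.0783). The count over the list was 11 to 14 over the fits without 1 array and 6 with the squamous covariate, in which Defb3 (3.46, adjusted p = 0.0742) and Lyz1 (4.11, adjusted p = 0.124) did not pass.

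Muc13, a membrane mucin of columnar epithelium, read 4.77, 4.87 and 5.09 in FXR arrays and 10.50, 10.14 and 10.47 in pl2_FXR arrays, both narrow ranges, and rose by 5.46 ± 0.72 (44-fold, adjusted p = 2.63e-06). Muc4, a second membrane mucin, rose by 3.89 ± 0.58 (adjusted p = 1.71e-05), and these were the 2 of 5 tested membrane mucins that rose. Muc5b, a gel-forming mucin of submucosal glands, read 4.35, 3.88 and 6.79 against 11.49, 11.59 and 10.20 and rose by 6.08 ± 1.08 (67.9-fold, adjusted p = 0.00025). Fcgbp, which is secreted with goblet cell mucus, rose by 3.71 ± 0.78 (adjusted p = 0.00188), the only one of 8 tested goblet markers to do so. The gastric surface mucin Muc5ac read 12.69, 12.74 and 12.82 against 12.22, 12.27 and 12.48, a difference of -0.43 ± 0.30 (adjusted p = 0.382) although the groups did not overlap. The trefoil factors Tff1 (-0.06 ± 0.24, adjusted p = 0.902) and Tff2 (0.25 ± 0.25, adjusted p = 0.568) did not pass. All of Muc13, Muc4, Muc5b and Fcgbp passed with the squamous covariate. Among 12 tested claudins 4 rose (median -0.04), and Cldn4, a tight junction protein of columnar and stressed epithelium, rose by 2.73 ± 0.53 (adjusted p = 0.000846). The claudin count was 1 without FXR replicate 2, pl2_FXR replicate 2 or pl2_FXR replicate 3 and 2 without FXR replicate 1, and Cldn4 did not pass with the squamous covariate (1.77, adjusted p = 0.159).

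**Figure D4:**
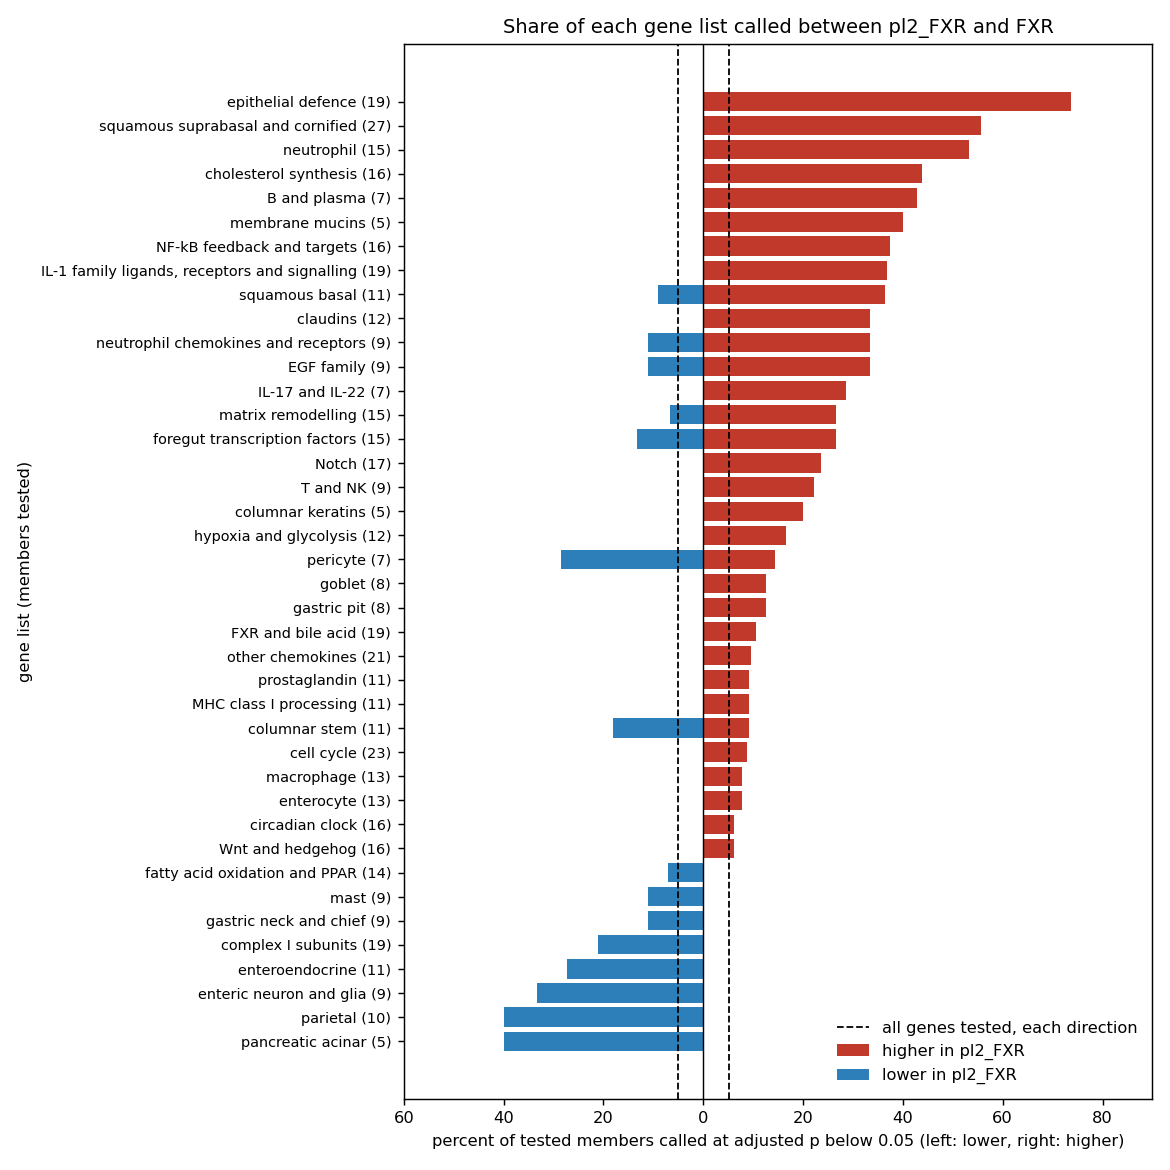
Share of the tested members of each gene list (y axis, members tested in brackets) called higher (red, to the right) or lower (blue, to the left) in pl2_FXR, in percent (x axis), for lists of at least 5 tested members with any call. Dashed lines mark the shares over all tested genes, 5.15 percent higher and 5 percent lower. Epithelial defence reaches 14 of 19 members higher and parietal markers 4 of 10 lower.

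Lower in pl2_FXR were genes of acid-secreting and hormone-making gastric cells. Of 10 tested parietal cell markers 4 fell and none rose (median -0.89, 1 with a positive difference). With array quality weights, with cyclic loess scaling or with the title suffix as a covariate, 1 parietal marker was called higher. Of 11 tested enteroendocrine markers 3 fell and none rose (median -0.99). Sst, the somatostatin of D cells, read 11.76, 11.86 and 11.54 in FXR arrays and 9.43, 8.64 and 9.10 in pl2_FXR arrays, a fall of 6.34-fold (-2.66 ± 0.65, adjusted p = 0.00669). Slc26a7, an anion exchanger of parietal cells, read 8.46, 8.94 and 9.02 against 7.25, 6.52 and 6.75 and fell by 1.96 on the log2 scale (SE 0.43, adjusted p = 0.0028). Neither gene's groups overlapped. The water channel Aqp4 fell by 1.84 (SE 0.48, adjusted p = 0.0119, but 0.0989 at most without pl2_FXR replicate 2 or 3), and the granin Scg3 fell by 1.55 (SE 0.36, adjusted p = 0.00508, but 0.0645 without pl2_FXR replicate 3). The parietal count was 1 without pl2_FXR replicate 2 or 3 and 2 without FXR replicate 1 or 3, and the enteroendocrine count 1 without pl2_FXR replicate 3 and 5 without pl2_FXR replicate 1. The parietal count was also 1 without the arrays of high hepatocyte or enterocyte mean. Both counts were 0 with the squamous covariate, and Sst (-1.32, adjusted p = 0.42) and Slc26a7 (-0.47, adjusted p = 0.649) did not pass.

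Glp1r, the receptor of the gut hormone GLP-1, read 9.19, 9.36 and 7.95 in FXR arrays and 6.59, 4.89 and 5.37 in pl2_FXR arrays and fell by 3.21 on the log2 scale (SE 0.75, adjusted p = 0.00492). B4galnt2, a glycosyltransferase of gut blood group antigens, fell by 3.41 (SE 0.95, adjusted p = 0.0186), the largest decrease, but the call was lost without FXR replicate 2 or 3 or pl2_FXR replicate 2 or 3 (adjusted p up to 0.102). Cybrd1, a ferric reductase for iron uptake, read 7.23, 8.30 and 7.73 against 5.48, 4.85 and 5.56. It fell by 2.45 (SE 0.35, adjusted p = 7.66e-06), and was called with the squamous covariate as well. Tnni3, a troponin of heart muscle, fell by 2.33 (SE 0.45, adjusted p = 0.000651), and Gpm6a, a membrane protein of neurons, by 2.21 (SE 0.45, adjusted p = 0.00129). Acot2, a mitochondrial acyl-CoA thioesterase, read 6.20, 7.07 and 7.40 against 4.67, 4.85 and 5.07 and fell by 2.03 (SE 0.39, adjusted p = 0.000604). All 3 FXR arrays exceeded all 3 pl2_FXR arrays for each of these genes. Of 9 tested markers of enteric neurons and glia 3 fell (median -1.13), and Gfap, the filament protein of glia, fell by 1.21 (SE 0.26, adjusted p = 0.00302). That count was 1 without FXR replicate 1 or 3 or pl2_FXR replicate 2 or 3, and 5 without pl2_FXR replicate 1. Of 19 tested subunits of respiratory complex I, 4 fell by small amounts (median -0.30), and Ndufs3 fell by 0.52 (SE 0.13, adjusted p = 0.00689). This count was 1 without pl2_FXR replicate 2. In the fit with the squamous covariate B4galnt2 (-1.78, adjusted p = 0.483), Glp1r (-1.10, adjusted p = 0.562), Tnni3 (-1.25, adjusted p = 0.225), Gpm6a (-0.83, adjusted p = 0.421) and Ndufs3 (-0.38, adjusted p = 0.228) did not pass.

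Of 19 tested genes of FXR and bile acid handling 2 rose and none fell (median 0.24), while 10.1 percent of all tested genes were called in either direction. Their mean was 4.85, 4.93 and 4.98 in FXR arrays and 4.86, 4.83 and 5.61 in pl2_FXR arrays. The highest of these, pl2_FXR replicate 3, was also the array with a hepatocyte mean of 8.97. Nr0b2, the repressor SHP that FXR induces, read 6.93, 7.18 and 7.06 in FXR arrays and 6.59, 6.24 and 6.67 in pl2_FXR arrays, a difference of -0.56 ± 0.39 (adjusted p = 0.376). The pl2_FXR arrays all lay below the FXR arrays, though the difference did not pass. The vitamin D receptor Vdr rose by 1.37 ± 0.41 (adjusted p = 0.026, up to 0.104 without FXR replicate 1 or 3 or pl2_FXR replicate 2 or 3), and differed by 0.96 (adjusted p = 0.362) with the squamous covariate. The efflux pump Abcc4 rose by 0.94 ± 0.28 (adjusted p = 0.0242), lost without any array but pl2_FXR replicate 1 (up to 0.128).

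The stem cell receptor Lgr5 read 6.43, 7.0 and 6.08 in FXR arrays and 6.90, 5.20 and 4.93 in pl2_FXR arrays, a difference of -0.83 ± 0.47 (adjusted p = 0.266) with overlapping groups. Without pl2_FXR replicate 1 it passed at -1.44 (adjusted p = 0.0434). The tuft cell kinase Dclk1 differed by 0.61 ± 0.22 (adjusted p = 0.0713), and 0 of 9 tested tuft cell markers passed in limma (1 at an unadjusted p below 0.05). The median of these markers was 0.36 and 8 had a positive difference. With the squamous covariate, or with only the arrays of the groups compared, 1 tuft cell marker was called higher. The intestinal factor Cdx2 read 2.80 to 3.01 in all 6 arrays, a difference of 0.05 ± 0.63 (adjusted p = 0.973). That SE comes from the spread within groups over the whole series. The proliferation marker Mki67 differed by 0.67 ± 0.35 (adjusted p = 0.217), and by 1.20 (adjusted p = 0.0295) without FXR replicate 1. Of 11 columnar stem cell markers 1 rose and 2 fell (median -0.50, 3 with a positive difference). Olfm4 rose by 2.01 ± 0.59 (adjusted p = 0.0257, up to 0.119 without FXR replicate 1 or 2 or pl2_FXR replicate 2 or 3). Tnfrsf19, a receptor of gastric stem cells, fell by 1.53 (SE 0.40, adjusted p = 0.0124, up to 0.0966) and Lrig1, an inhibitor of EGF receptors, fell by 0.82 (SE 0.21, adjusted p = 0.0108, up to 0.0865). Both calls were lost without FXR replicate 1 or pl2_FXR replicate 2 or 3, and with the squamous covariate neither Tnfrsf19 (-1.75, adjusted p = 0.0658) nor Lrig1 (-0.21, adjusted p = 0.722) passed. Ptgs2, the inducible prostaglandin synthase, differed by 0.29 ± 0.43 (adjusted p = 0.724) and the cytokine Il11 by 0.61 ± 0.36 (adjusted p = 0.291). Il6 read 2.23 to 2.85 in the 6 arrays and was too dim to be tested. The IL-6 family had 0 of 11 tested genes passing in limma (6 at an unadjusted p below 0.05). Its median was 0.03, 7 differences were positive, and 1 gene was called higher without FXR replicate 1 or pl2_FXR replicate 1.

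Transcription factors of the foregut moved both ways, 4 of 15 tested higher and 2 lower (median 0.11). Pax9, a factor of the oesophageal lining, read 3.75, 4.11 and 4.93 in FXR arrays and 6.16, 7.21 and 6.98 in pl2_FXR arrays and rose by 2.52 ± 0.37 (adjusted p = 1.71e-05). Klf5, a factor of proliferating epithelium, rose by 0.86 ± 0.13 (adjusted p = 3.02e-05). Foxa2, a factor of gland and gut epithelium, fell by 1.19 (SE 0.28, adjusted p = 0.00549, but 0.0548 without pl2_FXR replicate 2), and the stomach factor Barx1 fell by 1.57 (SE 0.47, adjusted p = 0.0269), a call kept only without pl2_FXR replicate 1 (otherwise up to 0.115). Leaving out FXR replicate 2 or pl2_FXR replicate 3 left 2 factors higher. Of the lower factors 1 was left without FXR replicate 1, 2 or 3 or pl2_FXR replicate 3, and 0 without pl2_FXR replicate 2. Pax9 and Klf5 passed with the squamous covariate, Foxa2 (-0.49, adjusted p = 0.492) and Barx1 (-1.04, adjusted p = 0.397) did not, and 3 factors were called higher and 0 lower.

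Of 17 tested Notch genes 4 rose (median 0.26): the receptor Notch3 rose by 1.88 ± 0.37 (adjusted p = 0.000848) and the feedback regulator Nrarp by 1.72 ± 0.37 (adjusted p = 0.00268). The count was 2 without FXR replicate 1 or pl2_FXR replicate 2, and neither Notch3 (0.07, adjusted p = 0.93) nor Nrarp (0.17, adjusted p = 0.856) passed with the squamous covariate. Of 9 tested genes of the EGF family 3 rose and 1 fell (median 0.43). The ligand Hbegf rose by 2.12 ± 0.39 (adjusted p = 0.000402) while Egf fell by 1.68 (SE 0.36, adjusted p = 0.00245), and the other 2 rises were lost without FXR replicate 1 or 2 or pl2_FXR replicate 2 or 3. Given the squamous covariate, Hbegf (1.26, adjusted p = 0.157) and Egf (-1.45, adjusted p = 0.0918) did not pass, and the EGF family count was 0 in both directions. Among 15 tested matrix remodelling genes 4 rose and 1 fell (median 0.11), with the collagenase Mmp13 at 2.47 ± 0.53 (adjusted p = 0.0025) and the stromelysin Mmp10 at 2.40 ± 0.59 (adjusted p = 0.00757). The count of rising genes was 2 without FXR replicate 1 or 2 or pl2_FXR replicate 2 or 3.

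All 16 tested genes of cholesterol synthesis had a positive difference (median 0.64) and 7 rose. Nsdhl, a late enzyme of the pathway, read 8.02, 8.02 and 8.48 in FXR arrays and 9.00, 9.26 and 9.12 in pl2_FXR arrays and rose by 0.96 ± 0.21 (adjusted p = 0.00312). Fdps, which makes farnesyl diphosphate, rose by 0.96 ± 0.25 (adjusted p = 0.013), a call lost without FXR replicate 1 or 2 or pl2_FXR replicate 3 (up to 0.0736). The count was 1 or 2 without FXR replicate 1, FXR replicate 2, pl2_FXR replicate 2 or pl2_FXR replicate 3, and 0 with the squamous covariate. Hif1a, the oxygen-sensing factor, rose by 1.53 ± 0.25 (adjusted p = 6.87e-05) and Hk2, the inducible hexokinase, by 1.86 ± 0.23 (adjusted p = 8.79e-07), the 2 of 12 tested hypoxia and glycolysis genes that rose (4 rose without FXR replicate 3). Hk2 passed with the squamous covariate and Hif1a did not (1.01, adjusted p = 0.0664).

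The T cell receptor chain Cd3g rose by 2.17 ± 0.46 (adjusted p = 0.00247), 1 of 2 rises among 9 tested T and NK markers (1 without pl2_FXR replicate 2). Of 7 tested B and plasma cell markers 3 rose (median 1.25), led by the immunoglobulin joining chain Jchain at 2.42 ± 0.70 (adjusted p = 0.0226). This count was 0 without FXR replicate 1, FXR replicate 2 or pl2_FXR replicate 3 and 1 without FXR replicate 3 or pl2_FXR replicate 1, and Jchain lost its call without FXR replicate 1 or 2 or pl2_FXR replicate 1 or 3 (up to 0.0983). Of 21 tested interferon response genes 0 passed in limma (0 at an unadjusted p below 0.05, median -0.08). The count was also 0 among 12 smooth muscle markers (3 unadjusted, median -0.86), 16 fibroblast and collagen markers (3 unadjusted, median -0.22) and 12 endothelial markers (2 unadjusted, median -0.26). All 12 smooth muscle genes had a negative difference, and 1 passed without pl2_FXR replicate 1. Of 7 tested pericyte markers 1 rose and 2 fell (median -0.98, 6 at an unadjusted p below 0.05). The riser was Notch3, both falls were lost without FXR replicate 1 or 3 or pl2_FXR replicate 2 or 3, and with the squamous covariate no pericyte marker passed. The smooth muscle mean was 10.19, 9.88 and 9.71 in FXR arrays and 9.36, 8.81 and 8.63 in pl2_FXR arrays. With smooth and skeletal muscle means as covariates 1168 genes were called, and 1053 of them were among the 1547.

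The design also asks whether the transgene difference in the FXR line was unlike that in WT mice. Against WT at MRI, 21 genes differed (0.138 percent), each at an adjusted p of 0.0478, and 2139 had an unadjusted p below 0.05. Taken with its sign, the difference was higher in the FXR line for 14 of them and lower for 7. Krt16 read 8.11, 9.79 and 9.66 in WT and 11.02, 11.18 and 11.37 in pl2 arrays, so the transgene difference was 2.01 in WT and 6.64 in the FXR line, and the difference between them 4.63 ± 0.98 (adjusted p = 0.0478). The ranges of pl2 and pl2_FXR arrays overlapped, and all FXR arrays lay below all WT arrays. The same order held for Krt17, with a transgene difference of 1.04 in WT and 4.07 in the FXR line (difference 3.03 ± 0.67, adjusted p = 0.0478), and for Dsg3, with 0.58 and 3.26 (2.69 ± 0.52, adjusted p = 0.0478). Cd44, the hyaluronan receptor, read 8.92, 9.04 and 9.60 in WT, 9.66, 9.50 and 9.60 in pl2, 7.35, 7.35 and 7.98 in FXR and 9.13, 9.94 and 9.77 in pl2_FXR arrays (1.65 ± 0.30, adjusted p = 0.0478). For the collagen Col1a1 the pl2 arrays read 8.24, 7.0 and 6.72 against 8.30 to 9.25 in WT, FXR and pl2_FXR arrays, and the difference was 2.20 ± 0.47 (adjusted p = 0.0478). The smooth muscle mean was low in the same pl2 arrays, at 8.94, 6.95 and 7.22 against 10.52, 10.03 and 10.15 in WT. With the muscle means as covariates 9 genes were called.

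None of the 21 passed with only the 12 arrays of these 4 groups, with array medians set equal, or without FXR replicate 1, pl2_FXR replicate 2 or 3, WT replicate 3 or pl2 replicate 2 or 3. With the squamous covariate 28 genes were called, of which 3 were among the 21, and of the 10 genes plotted for this comparison Col1a1 and Lamb1 passed. Krt16 (3.18, adjusted p = 0.154), Krt17 (2.37, adjusted p = 0.147) and Dsg3 (1.35, adjusted p = 0.094) did not. The count was 2 without FXR replicate 2, 11 without pl2_FXR replicate 1, and 252 without pl2 replicate 1. The groups also differ in sex-linked transcripts, since Xist read 10.56 to 10.90 in WT and 12.17, 4.92 and 3.83 in pl2 arrays, and with a sex-linked score as a covariate the count was 0. No neutrophil, IL-1 family or NF-kB member was among the 21, and S100a8, with 5.78 in WT and 7.14 in the FXR line, did not pass (difference 1.35 ± 0.98, adjusted p = 0.547).

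**Figure D5:**
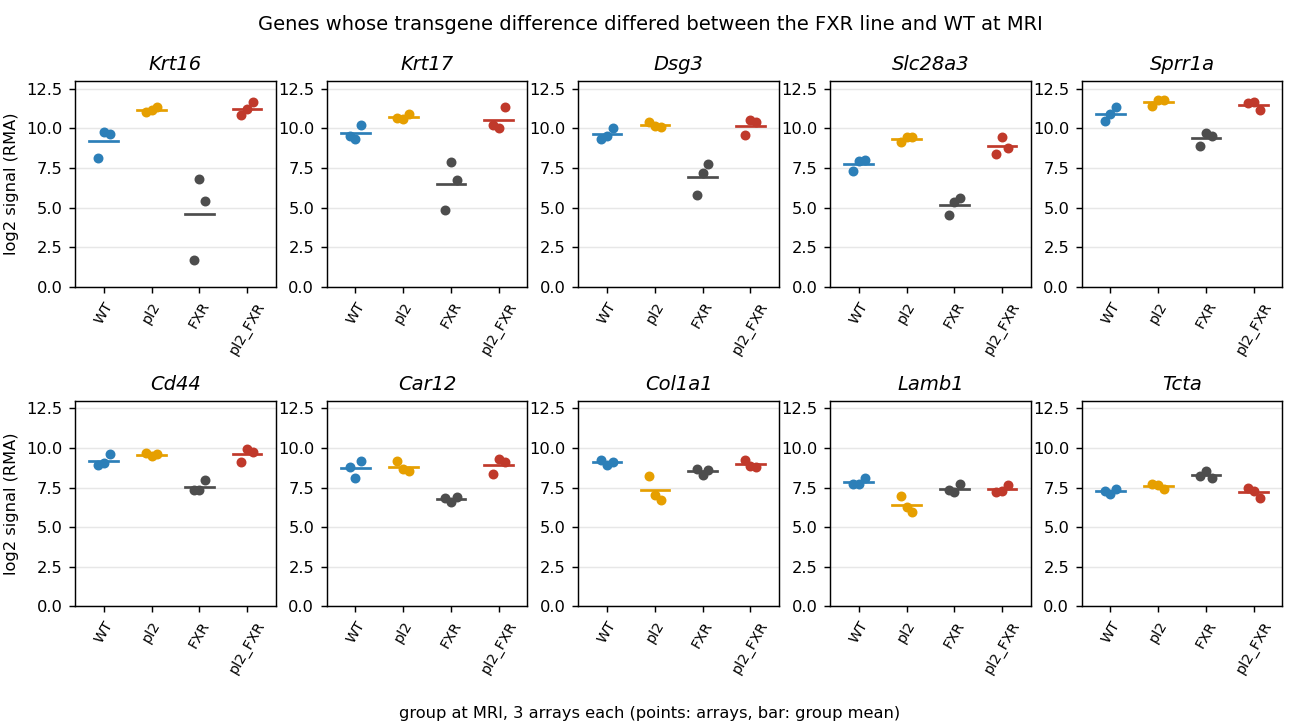
Log2 signal (y axis) of 10 genes called in the comparison of the transgene difference between the FXR line and WT, in WT, pl2, FXR and pl2_FXR arrays from MRI (x axis, 3 arrays each). Points are arrays and bars group means. For Krt16, Krt17, Dsg3, Slc28a3, Sprr1a, Cd44 and Car12 the FXR arrays lie lowest, for Col1a1 and Lamb1 the pl2 arrays lie lowest.

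Against WT at Freising 13 genes differed (0.0853 percent), and 982 had an unadjusted p below 0.05. Taken with its sign, the difference was higher in the FXR line for all 13. Xist read at most 5.59 in the Freising arrays, so line, facility and sex-linked transcripts cannot be told apart in this comparison. It shares the FXR and pl2_FXR arrays with the one above. Reg3g read 7.72, 7.60 and 7.95 in WT and 8.44, 7.76 and 9.46 in pl2 arrays, so the transgene difference was 0.80 there and 5.57 in the FXR line (4.77 ± 0.83, adjusted p = 0.00501). Among the 13 were also Sprr2d, with 1.82 at Freising and 4.83 in the FXR line, and Tgm1, with 0.73 and 3.16. Slc28a3, a nucleoside transporter, and Sprr1a were called against both WT comparisons. Slc28a3 rose by 3.70 in the FXR line, against a difference of 1.62 in WT at MRI and 1.18 at Freising. Sprr1a rose by 2.12, against 0.77 and 0.05. For the interferon-induced Mx1 the FXR line had a difference of -0.17, while WT arrays from Freising read 5.95, 6.70 and 6.00 and pl2 arrays 3.51, 3.71 and 3.31. The count was 8 without FXR replicate 1, 20 without FXR replicate 3, and 7 without WT replicate 3 or pl2 replicate 2. With the squamous covariate 38 genes were called, of which 8 were among the 13. In that fit 4 of the 10 called genes named for this comparison lost their call.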

How the data were processed

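Gene expression was measured on 48 Affymetrix arrays, 1 per sample, in 16 groups of 3 by genotype, facility, diet and age labels. The deposited values are log2 signals per probe set, made by the authors with RMA in Affymetrix Expression Console, per the submitters' processing notes, which give no version. RMA sets all arrays to 1 distribution, so a shift of most genes in 1 group would not be seen. Of 34390 probe sets, 23521 have 1 gene symbol in the platform annotation, 1814 have several and 9055 have none. Each of 22180 symbols was represented by its probe set with the highest overall mean, and 15242 with at least 3 arrays above the array median were tested. limma 3.58.1 in R 4.3.3 fitted 1 mean per group over all 48 arrays with empirical Bayes moderation (32 residual degrees of freedom), and p-values were adjusted by Benjamini-Hochberg over the tested genes at a threshold of 0.05. The difference of differences was tested in the same fit. The number of arrays limits the precision.

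The members and gene lists were chosen with earlier results of these data known. Named genes are a set of named inflammation, keratin, mucin and receptor genes, the 20 largest changes in each direction (without predicted, clone-named and Rik genes), up to 6 called members of each list in each direction, up to 3 of lists with fewer than 2 calls, the 10 largest differences of differences in each direction, and sex-linked genes, not all of which are described. The fit was tested on simulated data. Alternatives changed the filter on dim probe sets, the probe set rule, the arrays fitted, the moderation, the scaling and the covariates, and left out each array. Promoters are RefSeq's of GRCm38.p6, matched by symbol.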

Additional observations from a re-analysis of the deposited data

Results flagged for a closer look

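The transgene difference differed between the FXR line and WT at MRI, by the test of that difference in limma, for the following genes, each at an adjusted p of 0.0478. Taken with its sign, it was higher in the FXR line for Krt16 by 4.63 ± 0.98 (SE), Krt17 by 3.03 ± 0.67, Dsg3 by 2.69 ± 0.52, Col1a1 by 2.20 ± 0.47, the nucleoside transporter Slc28a3 by 2.08 ± 0.44 and the carbonic anhydrase Car12 by 2.04 ± 0.45. The same held for Cd44 (1.65 ± 0.30), the collagen Col15a1 (1.45 ± 0.30), the laminin chain Lamb1 (1.44 ± 0.29) and Sprr1a (1.35 ± 0.30). It was lower for Amigo3 (-1.64 ± 0.36), Tcta (-1.45 ± 0.30), Dnase1l1 (-1.26 ± 0.26), Paxx (-1.19 ± 0.24), Preb (-1.0 ± 0.22) and Dolpp1 (-0.93 ± 0.20). Between pl2_FXR and FXR, Col1a1, Col15a1, Lamb1, Dnase1l1, Preb and Dolpp1 were not called. Over the fits without 1 array, Lamb1 differed there by -0.15 to 0.14 and Col15a1 by -0.58 to -0.29. The Paxx call there was lost without FXR replicate 3 or pl2_FXR replicate 2 (adjusted p up to 0.14). With the squamous covariate Amigo3 (adjusted p = 0.256), Car12 (0.108), Tcta (0.491) and Paxx (0.91) did not pass between pl2_FXR and FXR. Amigo3 read 6.60, 6.01 and 6.16 in FXR arrays and 5.03, 4.94 and 5.01 in pl2_FXR arrays, against 5.58, 4.84 and 5.32 in WT and 5.50, 5.52 and 5.86 in pl2 arrays.

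Between the FXR line and WT at Freising the difference, taken with its sign, was higher in the FXR line for Reg3g by 4.77 ± 0.83 (adjusted p = 0.00501), Slfn4 by 4.25 ± 0.65 (adjusted p = 0.000682), Sprr2d by 3.01 ± 0.56 (adjusted p = 0.00866) and Gjb2 by 2.60 ± 0.54 (adjusted p = 0.033). The same held for Mx1 (2.54 ± 0.34, adjusted p = 0.000192), Slc28a3 (2.52 ± 0.44, adjusted p = 0.00507), Tgm1 (2.43 ± 0.47, adjusted p = 0.0144), Slfn2 (2.30 ± 0.46, adjusted p = 0.0228), Sprr1a (2.06 ± 0.30, adjusted p = 0.000339) and Rnf213 (1.99 ± 0.36, adjusted p = 0.00754). For Mx1, Rnf213 and Slfn4, genes of the interferon response and the Schlafen family, the pl2 arrays from Freising lay below the WT arrays there. Rnf213 read 8.87, 9.67 and 9.00 in WT and 7.58, 7.77 and 7.38 in pl2 arrays from Freising. Between pl2_FXR and FXR, Mx1 and Rnf213 were not called in limma, and Slfn2 did not pass with the squamous covariate (0.67, adjusted p = 0.388).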

How the results depend on the processing

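Of 89 called genes named between pl2_FXR and FXR, 69 were also called without each of the 6 arrays in turn. Of those, 46 were also called with the squamous covariate. These include Krt14, Krt16, Krt17, Krt6a, Krt6b, Dsg3, Sprr1a, Sprr2d and Tgm1, which are part of the covariate. Differences among its members must balance in that fit, so their kept calls add no support. The count of 1547 ranged from 577 to 1937 when 1 of the 6 arrays was left out and was 794 with the squamous covariate. In that fit 2 of the 89 called genes turned sign, Defb4 (-0.65) and Il1f6 (-0.98). Of 29 named genes not called, 11 changed sign there, among them Muc5ac (0.44), Tff1 (0.56), Nr1h4 (0.34), Nr0b2 (0.18) and Krt13 (-1.08), itself part of the covariate. The count of 1547 stayed within 1.5 times under the other alternatives. The share of higher calls, 50.7 percent, was 59.4 percent with array medians set equal, 66 percent with the squamous covariate and 61.9 percent without the arrays of high hepatocyte or enterocyte mean. Against WT at MRI, the 21 calls became 0 with no filter, with only the arrays of the groups compared, with only the 12 arrays whose titles carry AN, with array medians set equal, and with a sex-linked score or the title suffix as a covariate. With the squamous covariate 28 genes were called, of which 3 were among the 21, and 14 of the 16 genes named for this comparison lost their call. The 21 became 9 with muscle covariates, 2 without the high hepatocyte or enterocyte arrays and 1563 with array quality weights, whose estimation stopped before it converged, and ranged from 0 to 252 with 1 array left out. Against WT at Freising, the 13 calls became 26 with only the groups compared, 81 with weights, 38 with the squamous and 32 with the muscle covariates and 21 without the high hepatocyte or enterocyte arrays, and ranged from 7 to 20 with 1 array left out. The causes were not tested. The fit limited to AN arrays could not be made for Freising. No paired analysis was possible because the labels give no replicate numbers or pairs, and the numbers used here only name the arrays. Groups of 3 arrays and dim probe sets limit what could be called.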
